A study of Danio rerio with 4 samples.

Results

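The ogna/tnc/thbs4b fibroblasts described here are cells of adult zebrafish skin and skin wounds that carry transcripts of fibroblasts together with transcripts of at least 3 of 7 matrix and tendon genes. They were 1412 of the 29185 cells kept in 4 single-cell libraries. A cell was a member when it had 500 to 30000 unique molecular identifiers (UMIs, 1 per captured transcript), 200 to 4500 genes and below 25% mitochondrial UMIs, and passed 4 further conditions. It had at least 4 of 11 fibroblast genes (dcn, lum, col6a1, col6a2, col6a3, col5a1, dpt, prrx1a, prrx1b, twist1a and pmp22a), which defines the gated fibroblasts. It had the scale gene col10a1a below 0.5% of its UMIs and no UMI of col18a1b. It had at least 3 genes of list A (ogna, tnc, thbs4b, dkk3b, igsf10, cilp2 and thbs2b). Its list A genes outnumbered its genes of list B (aqp3b, ntd5, clu, sema3e, c4b, adh8a and si:ch211-106h4.12). The members were thus chosen by the measured UMIs of these genes, so their levels and every contrast with other fibroblasts are descriptions.

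The study followed full-thickness laser wounds of wild-type adult fish through 3 stages after wounding (2, 4 and 6 days post wounding, dpw) and set them beside unwounded skin. Each of the 4 conditions is 1 library of cells pooled from 3 fish. Wounds were taken with a 4 mm biopsy punch whereas unwounded skin was scraped off, so the way of sampling and wounding cannot be told apart, and the deposited design gives wounds of 2 mm across, while the study's methods state a different diameter. With 1 library per condition no difference between conditions has a replicate check, and no p-value is given. Brackets hold exact 95% intervals of the UMI or cell counts (a log-normal interval for a ratio of shares). They cover counting error only and not the spread between fish. Those of UMI counts treat every UMI as independent, so they also leave out the spread between cells of a library and are too narrow for it. The same holds for the genes called with these intervals.

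Granulation tissue is the provisional tissue that fills a skin wound, and its fibroblasts lay down fibronectin first and fibrillar collagen after it. Tenascin C and the thrombospondins are matricellular proteins, which modulate the contact of cells with the matrix more than they bear load, and they are abundant in tendon, in developing connective tissue and in healing wounds. Osteoglycin, encoded by ogna, is a small leucine-rich proteoglycan that binds collagen fibrils. In mammals dkk3 and cilp2 encode secreted proteins, cilp2 being known from cartilage and tendon, and thbs4 is a thrombospondin typical of tendon and of the attachment of muscle to it.

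Markers of tenocytes, the fibroblasts of tendon, were present in part. The tendon transcription factor gene scxa (scleraxis, ENSDARG00000035695) had 111, 177, 164 and 139 CPM (counts per 1000000 UMIs, the UMIs of a gene over all UMIs of a class) across the unwounded, 2, 4 and 6 dpw libraries. In the list B fibroblasts, the mirror class with at least 3 list B genes outnumbering list A, scxa had 42.0, 19.4, 42.2 and 23.2 CPM at the same stages. The tenocyte membrane gene tnmd (tenomodulin, ENSDARG00000052615) had 174, 64.4, 41.0 and 306 CPM in the members and 10.8, 16.3, 37.5 and 54.0 CPM in list B fibroblasts. Some other tenocyte markers were at or near 0: in the members scxb reached 0 to 0.619 CPM over the 4 libraries, mkxa 0.779 to 6.82 CPM, mkxb 0 to 0.584 CPM, fmoda 0 to 7.01 CPM and kera 0 to 2.77 CPM. Others were not: prelp and thbs4a had the levels given further below, and egr1 was among the most abundant genes of the tendon list. In addition, scxa was not particular to the members, since fibroblasts with col18a1b had 25, 148, 175 and 120.0 CPM. The cells are therefore named here by genes of list A. The rule requires no single one of the genes in the name. Both ogna and tnc were detected in 11.8%, 52.6%, 76.1% and 72.5% of members across the unwounded, 2, 4 and 6 dpw libraries.

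After every cell was thinned to 2000 UMIs, scxa was detected in 17.6%, 22.9%, 20.3% and 18.8% of members across the unwounded, 2, 4 and 6 dpw libraries, against 4.00%, 4.65%, 4.41% and 3.38% of list B fibroblasts. Fibroblasts with col18a1b had scxa in 7.14%, 21.4% and 19.4% across the unwounded, 2 and 4 dpw libraries. Gated cells high in col10a1a had it in 20.5%, 6.25% and 30.0% of 39, 16 and 10 cells. The scxa share was thus not particular to the members. Cells outside the fibroblast gate had it in 0.239% to 0.445%. Whether these ungated cells include fibroblasts with few detected gate genes was not tested, so this is not a measured background. For tnmd the shares were 17.6%, 12.5%, 6.74% and 22.4% of members, 0.889%, 1.55%, 5.15% and 5.82% of list B fibroblasts and 0.0501% to 0.149% of ungated cells. In the unwounded, 2 and 4 dpw libraries tnmd was in 5.13%, 18.8% and 0% of gated cells high in col10a1a. Fibroblasts with col18a1b had it in 0% at these stages. Median depth before thinning was 8749 to 17472 UMIs in members, 6158.5 to 11214 UMIs in list B fibroblasts and 2795 to 3652 UMIs in ungated cells. Shallower cells were left out, 0, 1, 3 and 33 of the members at the 4 stages. Without thinning, scxa was present in 59.8%, 52.4% and 38.3% and tnmd in 23.7%, 12.8% and 32.0% of members at 2, 4 and 6 dpw.

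The libraries held 5802, 7754, 7315 and 8314 kept cells across the unwounded, 2, 4 and 6 dpw libraries, and no cell barcode was shared between members of different libraries, although any pair of libraries shared 10 to 17 barcodes among kept cells. The members contributed 189200, 1614847, 11555489 and 5134655 UMIs, so values in unwounded skin rest on few cells. Markers of other cell types were present in the members at levels that moved between libraries, as summed CPM of each list. All 17 keratinocyte markers together had 20233, 2104, 2619 and 8545 CPM, with 4, 4, 0 and 0 of them at 0. The 17 macrophage markers had 174, 1909, 412 and 494 CPM with 8, 1, 0 and 2 at 0, and the 11 neutrophil markers 1089, 906, 524 and 297 CPM with 6, 0, 0 and 4 at 0. Members with keratinocyte markers at 1% of UMIs or more, or with macrophage, neutrophil and lymphocyte markers together at 0.5% or more, numbered 4, 16, 39 and 64. Counts over genes are also given without these cells. No doublets were removed, as Scrublet marked 0, 0, 1 and 0 cells per library.

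The ogna/tnc/thbs4b fibroblasts were rare in unwounded skin and were the largest of the classes compared at 4 dpw. They numbered 17 of 626 gated fibroblasts in unwounded skin, 97 of 708 at 2 dpw, 760 of 1753 at 4 dpw and 538 of 1975 at 6 dpw. As a share of gated fibroblasts this was 2.72% (1.59 to 4.31), 13.7% (11.2 to 16.5), 43.4% (41.0 to 45.7) and 27.2% (25.3 to 29.3). The share at 4 dpw was 3.16 times (2.61 to 3.84) that at 2 dpw and 16.0 times (9.96 to 25.6) that in unwounded skin, and the share at 6 dpw was 0.628 times (0.574 to 0.687) that at 4 dpw. Of all kept cells the members made up 0.293%, 1.25%, 10.4% and 6.47% at the 4 stages. Thinning all cells to 2000 UMIs first gave 5.23 for 4 over 2 dpw. Leaving out cells with 3 or more markers of another cell class left 0, 6, 43 and 51 members of 14, 32, 107 and 136 gated fibroblasts at the 4 stages. It gave 2.14 (1.01 to 4.57) for 4 over 2 dpw and 0.933 (0.680 to 1.28) for 6 over 4 dpw, so that the last interval took in 1. More markers are detected in deeper cells, so this setting falls hardest on deep cells. Every value under it rests on few cells.

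Over the same libraries the list B fibroblasts held 37.4% (33.6 to 41.3), 37.4% (33.9 to 41.1), 16.3% (14.6 to 18.1) and 32.1% (30.0 to 34.2) of gated fibroblasts, and cells with col18a1b held 2.56%, 8.76%, 16.1% and 11.4%. These shares have a common denominator, and the share of the members at 4 dpw exceeded that of either other class. At 6 dpw the members held a smaller share than the list B fibroblasts.

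**Figure D1:**
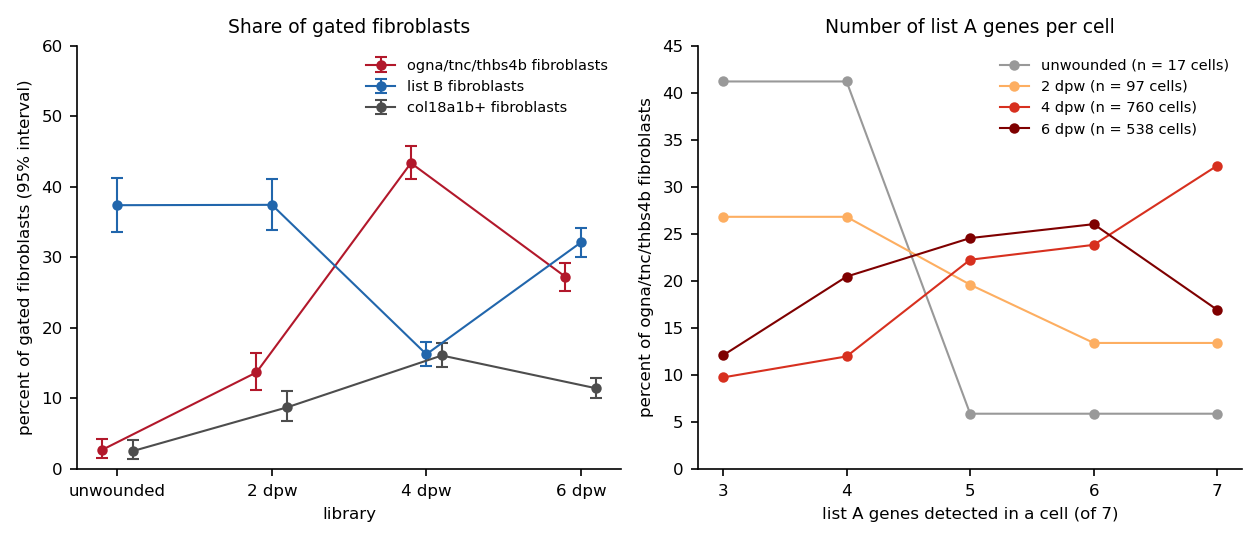
The left panel plots the percent of gated fibroblasts (y axis, 95% intervals of the counts) in ogna/tnc/thbs4b fibroblasts, list B fibroblasts and col18a1b+ fibroblasts for each library (x axis), and the right panel the percent of ogna/tnc/thbs4b fibroblasts by the number of list A genes detected in the cell, 1 line per library. The members reach 43.4% at 4 dpw, where 32.2% of them carry all 7 genes.

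Members differed in how many list A genes they carried. Cells with all 7 genes made up 5.88%, 13.4%, 32.2% and 16.9% of the members across the unwounded, 2, 4 and 6 dpw libraries, and cells with exactly 3 made up 41.2%, 26.8%, 9.74% and 12.1%. Depth differed along this scale, and not in the same direction in each library. The median at 4 dpw was 9595.5 UMIs for cells with 3 genes and 16634 UMIs for cells with 7, and at 6 dpw 3441 UMIs for cells with 3 and 10555 UMIs for cells with 7. The order was reversed at 2 dpw, with 18963 UMIs for cells with 3 and 14954 UMIs for cells with 7. In unwounded skin the 7 cells with 3 had a median of 12868 UMIs and the 1 cell with all 7 had 5992 UMIs. Just inside the threshold, 7, 26, 74 and 65 cells had 3 list A genes, and just outside it 10, 16, 50 and 44 cells had 2 and otherwise met the rule. A further 6, 7, 19 and 53 cells had 3 or more list A genes but as many of list B, and 5, 17, 48 and 85 members led by a single gene.

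The 7 genes of list A did not follow 1 course. In CPM of the members, ogna (ENSDARG00000044132) had 116, 279, 863 and 1362 across the unwounded, 2, 4 and 6 dpw libraries, thus the highest level at the last stage. The thrombospondin gene thbs4b (ENSDARG00000020072) had 285, 670.0, 1908 and 1518 CPM and was highest at 4 dpw. Tenascin C, tnc (ENSDARG00000021948), stayed within 836 to 1018 CPM in all 4 libraries. The secreted Wnt pathway modulator gene dkk3b (ENSDARG00000070683) had 502, 315, 388 and 229 CPM, so its level at 6 dpw was the lowest of the 4. The immunoglobulin superfamily gene igsf10 (ENSDARG00000077497) had 217, 56.4, 177 and 228 CPM with the low point at 2 dpw. The cartilage intermediate layer gene cilp2 (ENSDARG00000013687) had 217, 186, 297 and 568 CPM, and thbs2b (ENSDARG00000073810) had 280.1, 154, 301 and 516 CPM. Both were highest at 6 dpw.

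These are levels of the genes whose detection chose the cells, so they are given as a description. In list B fibroblasts the highest value of any list A gene in any library was that of tnc at 4 dpw, with 215 CPM. A gene listed under the symbol TNC (ENSDARG00000078362), separate from tnc, had 58.1, 31.0, 18.3 and 47.1 CPM in the members and 0.681 to 2.90 CPM in list B fibroblasts, and how reads were divided between such copies was not tested. The share of members with a UMI also varied: after thinning to 2000 UMIs, thbs4b was found in 47.1%, 40.6%, 82.0% and 70.5% of members, ogna in 5.88%, 36.5%, 63.3% and 73.9% and tnc in 58.8%, 58.3%, 60.4% and 60.8%.

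**Figure D2:**
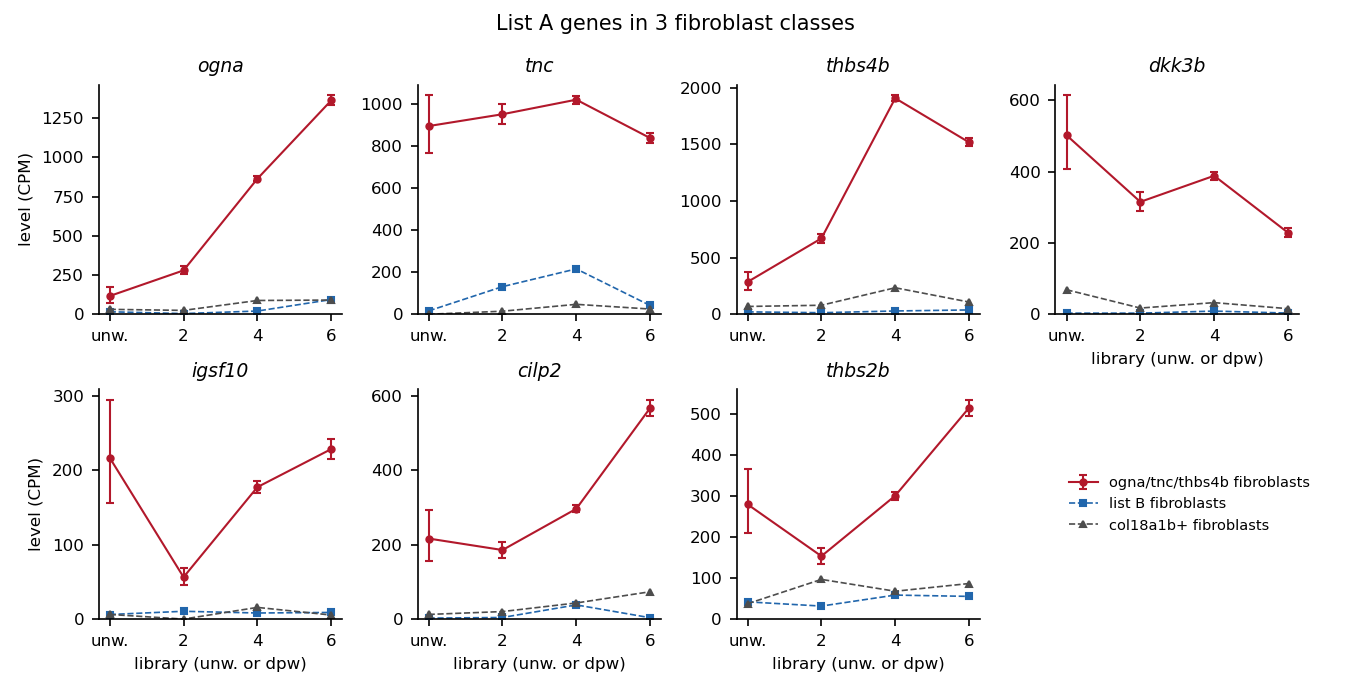
Each panel plots the level of 1 list A gene (CPM, y axis from 0) in each library (unwounded or dpw, x axis) for ogna/tnc/thbs4b fibroblasts (with 95% intervals of the counts), list B fibroblasts and col18a1b+ fibroblasts. Because these genes chose the cells the gap between classes is by construction and the course over libraries is a description of the cells chosen. The highest value in the members is 1362 CPM at 6 dpw for ogna and 1908 CPM at 4 dpw for thbs4b, and tnc stays between 836 and 1018 CPM.

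Beyond the rule's own genes, the members and the list B fibroblasts of the same library differed in genes of several lists. Of 9163 genes, 196 (2.14%) were at least 2-fold higher in the members in each of the 4 libraries and 160 (1.75%) at least 2-fold lower. This contrast is the one the rule makes, so nothing is read from these counts. They use the ratio alone, and a count of 0 entered at the floor of 3 UMIs. In unwounded skin that floor was 15.9 CPM in the members and 1.54 CPM in list B fibroblasts. A gene with no UMI in the unwounded members could thus count as higher, as tcf15 did. The counts of higher genes here, by list and in the next paragraph can include such genes. Of the genes compared in each list, 10 of 17 tendon genes were at least 2-fold higher in all 4 libraries and 0 lower, 7 of 15 cartilage-type genes higher and 3 lower, 6 of 11 fibrillar collagens higher and 0 lower, and 10 of 29 matricellular genes higher and 3 lower. Of 15 hyaluronan and large proteoglycan genes, 3 were higher and 5 lower. Among the genes with the largest ratios, comp, the cartilage oligomeric matrix protein gene of the thrombospondin family, had 227, 248, 270.3 and 379 CPM in the members and 0.512, 2.16, 2.73 and 5.23 CPM in list B fibroblasts across the unwounded, 2, 4 and 6 dpw libraries. After the thinning described above, comp was detected in 35.3%, 22.9%, 25.1% and 40.0% of members at these stages. The shares were 14.3%, 10.7%, 12.7% and 7.03% of col18a1b+ fibroblasts and 0.444%, 0.388%, 0.368% and 1.69% of list B fibroblasts. The gene comp was thus not particular to the members, although the unwounded col18a1b+ share rests on 14 cells. Matrilin 4, matn4, had 407, 216, 179.6 and 368 CPM in the members and 4.61, 2.77, 2.38 and 0.387 CPM in list B fibroblasts. The cartilage matrix gene ucmaa had 1105, 289, 254 and 1001 CPM against 18.4, 4.01, 18.4 and 19.8 CPM. The same direction held for angptl7, which encodes a secreted angiopoietin-like protein, with 4439.7, 754, 1263 and 3970.5 CPM in the members and 355, 0.925, 38.8 and 87.4 CPM in list B fibroblasts.

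Regulatory and signalling genes differed in both directions. Of 50 dermal and limb-type transcription factor genes, 5 were at least 2-fold higher in all 4 libraries and 10 lower, and of 37 FGF, PDGF, IGF and hedgehog genes 4 were higher and 5 lower. For the TGF-beta list (44 genes) and the Wnt list (27 genes) the counts were 1 higher and 2 lower in each. Over all 9163 genes the shares were 2.14% higher and 1.75% lower, so nothing is read from the TGF-beta and Wnt counts. The somite and dermal mesoderm transcription factor gene meox1 had 21.1, 97.8, 88.4 and 125 CPM in the members and 0.512, 5.86, 7.49 and 7.36 CPM in list B fibroblasts. After thinning, meox1 was detected in 5.88%, 20.8%, 15.2% and 16.0% of members across the unwounded, 2, 4 and 6 dpw libraries. The shares were 7.14%, 3.57%, 6.72% and 9.73% of col18a1b+ fibroblasts and 0%, 1.16%, 0.735% and 1.31% of list B fibroblasts. The bHLH factor gene tcf15 (paraxis) was found with no UMI in the members of unwounded skin, and had 32.2, 51.4 and 34.1 CPM at 2, 4 and 6 dpw against 2.47, 2.38 and 2.13 CPM in list B fibroblasts. In col18a1b+ fibroblasts tcf15 was higher than in the members in all 4 libraries, with 100, 53.5, 60.3 and 53.7 CPM. The connective tissue growth factor gene ccn2a had 793, 515, 342 and 534 CPM in the members and 88.7, 53.6, 29.3 and 42.2 CPM in list B fibroblasts. Lower in the members were the chemokine genes ccl25b, with 127, 35.9, 37.8 and 132 CPM against 1461, 625, 1290.3 and 1579 CPM in list B fibroblasts, and cxcl8a, with 26.4, 89.8, 26.2 and 36.4 CPM against 443, 788, 501 and 682 CPM. The large proteoglycan gene vcana was lower as well, with 0, 15.5, 4.41 and 0.390 CPM in the members and 199, 156, 69.8 and 87.2 CPM in list B fibroblasts.

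To ask how the members themselves differed between stages, their UMIs were summed per library and a gene was called when its CPM differed at least 2-fold, its interval lay on that side of 1 and it had at least 20 UMIs over both libraries. Between 4 and 2 dpw, 564 of 10889 genes (5.18%) were called higher at 4 dpw and 1347 (12.4%) lower. Between 6 and 4 dpw, 809 of 11531 genes (7.02%) were called higher at 6 dpw and 648 (5.62%) lower. Against the 17 cells of unwounded skin, 480 of 5601 genes (8.57%) were called higher and 553 (9.87%) lower at 2 dpw, 305 of 10450 (2.92%) higher and 769 (7.36%) lower at 4 dpw, and 283 of 8324 (3.40%) higher and 525 (6.31%) lower at 6 dpw. The median ratio over all genes compared was 0.895 for 4 over 2 dpw and 0.974 for 6 over 4 dpw. Against unwounded skin it was 1.13 at 2 dpw, 0.663 at 4 dpw and 0.811 at 6 dpw. A gene with no UMI in the unwounded members entered these ratios at 15.9 CPM.

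How the totals were scaled moved these splits. Trimmed-mean (TMM) factors, which give less weight to a few very abundant genes, raised the median log2 ratio by 0.33 for 4 over 2 dpw, by 0.42 for 4 dpw over unwounded and by 0.40 for 6 dpw over unwounded, and lowered it by 0.02 for 6 over 4 dpw. With them 1159 genes were called higher and 781 lower at 4 than at 2 dpw, 691 and 458 at 4 dpw against unwounded, and 577 and 286 at 6 dpw against unwounded. Totals that left out ribosomal protein, mitochondrial and haemoglobin genes shifted the median the other way for 4 over 2 dpw, by -0.13. For 6 over 4 dpw they shifted it by -0.10, the same way as TMM factors. Changes near the 2-fold limit are therefore relative to the scaling, and the genes named below are given with their CPM. Without the 1 cell of each library that held most UMIs of a gene, 511 genes were called higher and 228 lower at 4 dpw against unwounded skin, and 459 higher and 129 lower at 6 dpw. Without cells with 3 or more markers of another class, 172 genes were called higher and 147 lower at 4 than at 2 dpw, and 186 higher and 261 lower at 6 than at 4 dpw.

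Fibrillar collagens form the load-bearing fibrils of dermis and tendon, and in the members they stepped up at 4 dpw and held the higher level at 6 dpw. The 14 genes measured of this list summed to 27976, 29264, 79765 and 104134 CPM across the unwounded, 2, 4 and 6 dpw libraries, which made it the most abundant of the 21 gene lists at every stage. Genes of the rule, col5a1 among them, are left out of the lists. At 4 over 2 dpw 7 of the 9 genes compared were called higher and 0 lower, with a summed ratio of 2.73 (2.70 to 2.75). At 6 over 4 dpw 3 of the 10 genes compared were called higher and 0 lower, with a summed ratio of 1.31 (1.30 to 1.31). Over all genes, 5.18% were called higher and 12.4% lower at 4 over 2 dpw, and 7.02% and 5.62% at 6 over 4 dpw. List B fibroblasts had 9705, 10524, 19450.3 and 31210.3 CPM, and ungated cells 256 to 431 CPM. Fibroblasts with col18a1b had 8313, 10013, 21410 and 20990 CPM, and gated cells high in col10a1a 30674.5, 22053, 27219 and 29831 CPM. Gated fibroblasts of none of these classes had 21940, 10556, 20389 and 48780 CPM. A higher level at 4 than at 2 dpw was thus not particular to the members.

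Type I collagen made up most of it. The alpha-2 chain gene col1a2 (ENSDARG00000020007) had 10312, 11104, 30894 and 41633 CPM across the unwounded, 2, 4 and 6 dpw libraries, 2.78 (2.74 to 2.82) times as much at 4 as at 2 dpw and 1.35 (1.34 to 1.35) times as much at 6 as at 4 dpw. The alpha-1 chain genes ran in parallel, col1a1a (ENSDARG00000012405) with 6406, 7496, 19931 and 24734 CPM and col1a1b (ENSDARG00000035809) with 9461, 8516, 23657 and 31311 CPM. At every stage all 3 chains were higher in the members than in list B fibroblasts, where col1a2 had 3789.5, 4116, 7797 and 12811 CPM. Their 4 over 2 dpw ratios lay between 2.66 and 2.78, and how reads were divided between col1a1a and col1a1b was not tested.

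Type V and XI collagens, which nucleate fibrils and set their diameter, differed among themselves. The gate gene col5a1 had 3562, 4331, 8457 and 8048 CPM and col5a2a 766, 1246, 2305 and 2197 CPM. The type XI gene col11a1b had 470.4, 450.2, 1650.0 and 2057 CPM, 3.67 (3.40 to 3.95) times as much at 4 as at 2 dpw, and col11a1a had 84.6, 161, 462 and 382 CPM with a ratio of 2.87 (2.53 to 3.26), which turned to 0.840 without cells with 3 or more markers of another class. The type II gene col2a1b, whose product is the main collagen of cartilage, had 365, 198, 699 and 1598 CPM and was called higher at both steps, 3.54 (3.17 to 3.97) times at 4 over 2 dpw and 2.29 (2.22 to 2.36) times at 6 over 4 dpw. Its paralog col2a1a had no UMI in the members of any library, which allows up to 15.9, 1.86, 0.260 and 0.584 CPM (3 UMIs) across the unwounded, 2, 4 and 6 dpw libraries.

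**Figure D3:**
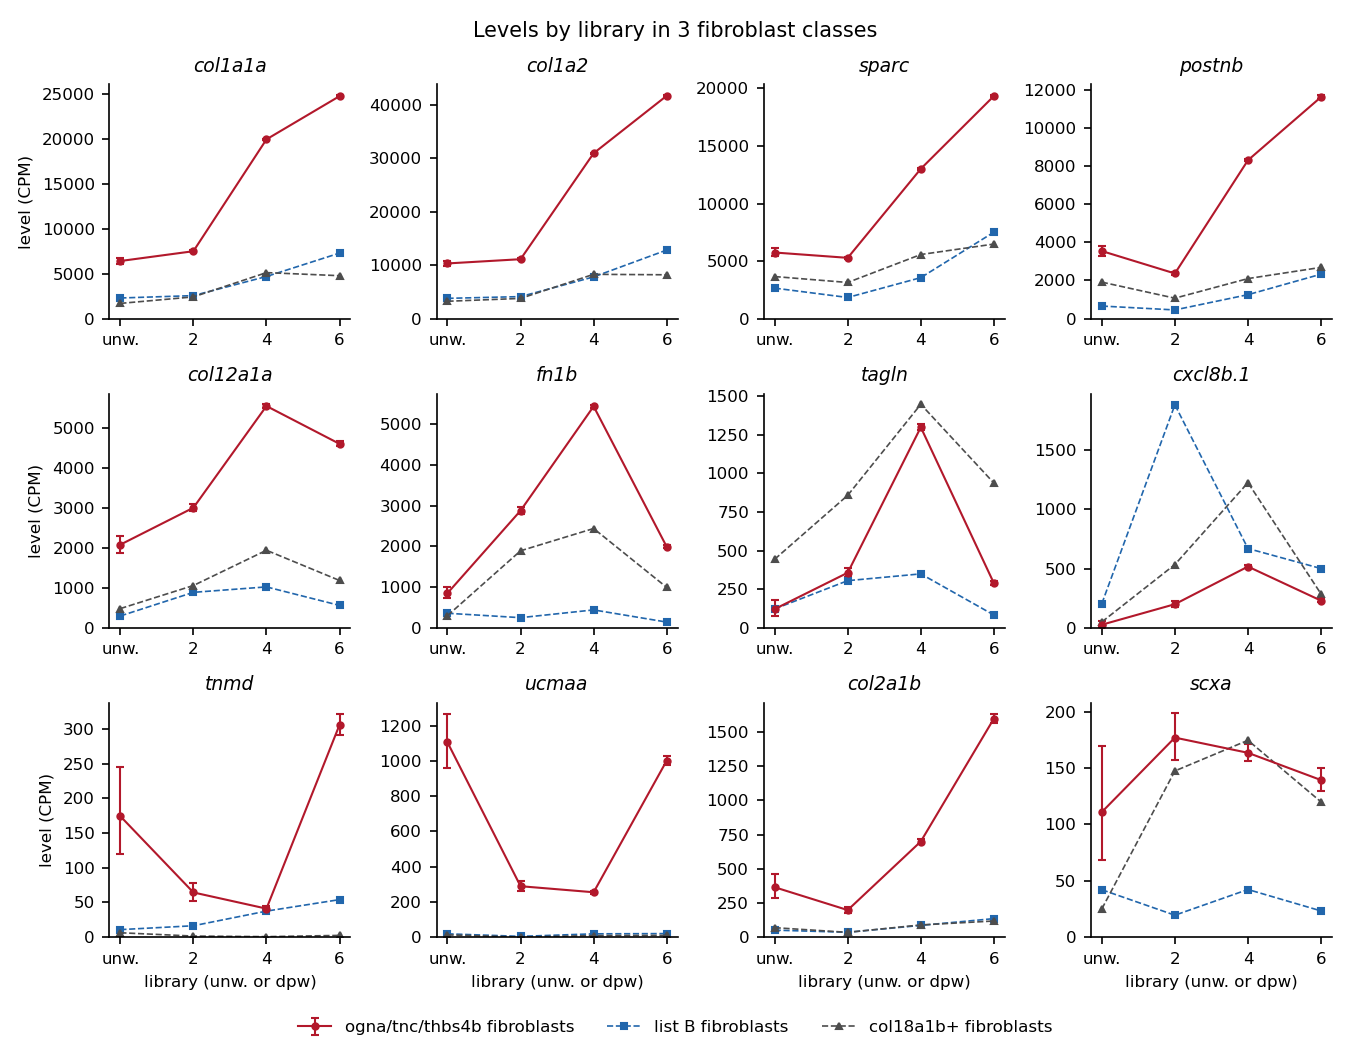
Each panel plots the level of 1 gene (CPM, y axis from 0, scale set per panel) in each library (unwounded or dpw, x axis) for ogna/tnc/thbs4b fibroblasts (95% intervals of the counts), list B fibroblasts and col18a1b+ fibroblasts. Collagen I, sparc and postnb are higher at 4 than at 2 dpw and highest at 6 dpw, and fn1b, tagln and cxcl8b.1 peak at 4 dpw with 5435, 1298 and 518 CPM. The summed levels of tnmd and ucmaa are higher in unwounded skin and at 6 dpw than at 2 and 4 dpw. The unwounded values rest on 17 cells, of which the median cell had no UMI of either gene.

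The step was spread over most cells and not carried by a few. The fibrillar collagen list took a median of 2.51% of a member's UMIs in unwounded skin, 2.38% at 2 dpw, 7.74% at 4 dpw and 9.41% at 6 dpw. The lower and upper quartiles were 1.77% and 3.75% in unwounded skin, 1.46% and 4.34% at 2 dpw, 5.07% and 10.6% at 4 dpw, and 6.31% and 13.9% at 6 dpw, so that the lower quartile at 4 dpw exceeded the upper quartile at 2 dpw. No cell of the 4 dpw library held more than 0.448% of its col1a2 UMIs. Within 4 dpw the list took 4.62% of UMIs in cells with 3 list A genes and 9.52% in cells with all 7, whereas at 6 dpw it took 7.15% in cells with 3, 12.0% in cells with 4 and 9.24% in cells with 7. Cells just outside the rule, with 2 list A genes, had 2.81% at 6 dpw and 2.89% at 4 dpw.

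**Figure D4:**
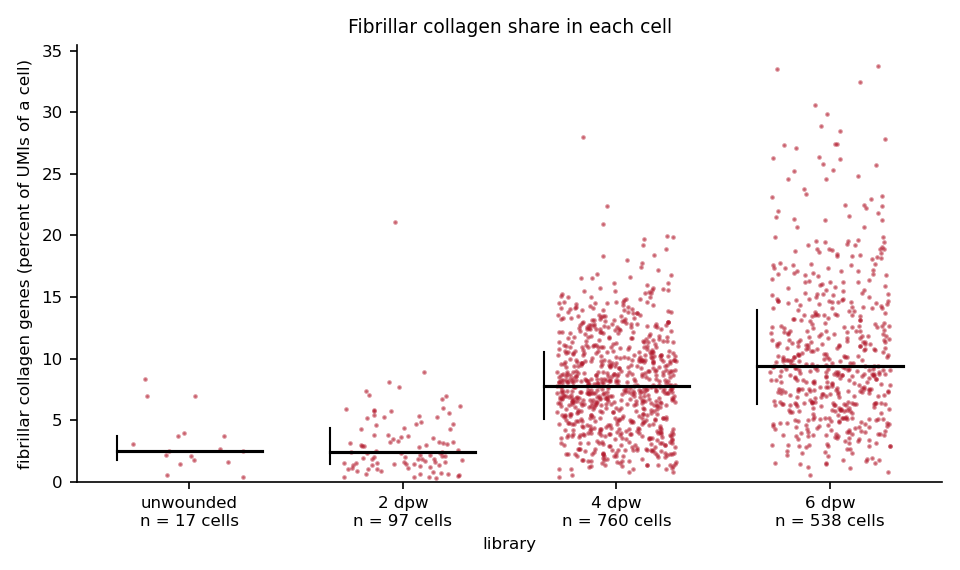
Each point is 1 ogna/tnc/thbs4b fibroblast, with the percent of its UMIs in the 14 fibrillar collagen genes measured (y axis) by library (x axis). Horizontal bars mark the median and vertical bars the quartiles, and the median goes up to 7.74% at 4 dpw and 9.41% at 6 dpw, against 2.38% at 2 dpw.

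Other collagens, many of which sit on the surface of fibrils (the FACIT group), had more genes called higher than lower at both steps. Between 2 and 4 dpw 2 of the 15 genes compared were called higher and 0 lower. At 6 over 4 dpw 7 of the 16 genes compared were called higher and 0 lower. Of all genes, 5.18% were called higher and 12.4% lower at 4 over 2 dpw, and 7.02% and 5.62% at 6 over 4 dpw. With so few genes compared, nothing is read from the absence of lower calls. The most abundant was col12a1a, a FACIT collagen of tendon and dense dermis, with 2077, 2999, 5538 and 4594 CPM across the unwounded, 2, 4 and 6 dpw libraries and a ratio of 1.85 (1.79 to 1.90) for 4 over 2 dpw that did not reach the 2-fold limit. Its paralog col12a1b had 275, 437, 563 and 899 CPM. The network-forming gene col8a1b had 63.4, 44.6, 228 and 204 CPM and was 5.12 (4.05 to 6.56) times as high at 4 as at 2 dpw. In contrast, col22a1, which in zebrafish is known from the junction of muscle and tendon, had 148, 52.0, 57.2 and 281 CPM and was 4.92 (4.48 to 5.40) times as high at 6 as at 4 dpw. The basement membrane chain genes col4a5 and col4a6 were called higher at 6 dpw too, with 31.0 CPM at 6 dpw against 6.14 CPM at 4 dpw for col4a5 and 21.6 CPM against 2.86 CPM for col4a6.

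The enzymes and chaperones that build collagen did not step up to the same extent. Their summed ratio at 4 over 2 dpw was 1.097 (1.079 to 1.115), beside 2.73 for the fibrillar collagens. TMM factors raise both ratios by the same factor. At 4 over 2 dpw 1 of the 37 genes compared was called higher and 1 lower, with a median ratio of 0.912 beside 0.895 over all genes. At 6 over 4 dpw 6 of the 39 genes compared were called higher and 2 lower. Over all genes, 5.18% were called higher and 12.4% lower at 4 over 2 dpw, and 7.02% and 5.62% at 6 over 4 dpw. The summed level of the list was 6855, 10141, 11119.7 and 11369 CPM across the unwounded, 2, 4 and 6 dpw libraries, and its ratio of 1.02 (1.01 to 1.03) for 6 over 4 dpw turned to 0.955 with totals that left out ribosomal protein, mitochondrial and haemoglobin genes. Among its members the collagen chaperone gene serpinh1b (HSP47) had 1126, 643, 758 and 1512 CPM, and the cyclophilin gene ppib 1686, 2494, 3642 and 2944 CPM. Lysyl oxidases crosslink collagen, and loxa had 518, 585, 736 and 631 CPM and loxl2b 100.4, 254, 416 and 469 CPM. In list B fibroblasts loxa was lower at every stage, with 137, 46.6, 67.8 and 39.9 CPM. The lysyl hydroxylase gene plod2 had 15.9, 50.2, 46.3 and 19.3 CPM.

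Genes of the secretory pathway, which moves matrix proteins out of the cell, were highest at 2 dpw as a sum, with 9619.5, 12794, 10021 and 10478 CPM across the unwounded, 2, 4 and 6 dpw libraries. For 4 over 2 dpw 0 of the 43 genes compared were called higher and 2 lower, and at 6 over 4 dpw 1 of the 44 genes compared was called higher and 0 lower. The shares over all genes were 5.18% higher and 12.4% lower at 4 over 2 dpw, and 7.02% and 5.62% at 6 over 4 dpw. The 6 over 4 dpw ratio of the sum was 1.05 (1.03 to 1.06) and turned to 0.976 with the totals that left out ribosomal protein, mitochondrial and haemoglobin genes.

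Among matricellular and adhesive glycoproteins, some genes moved with collagen I and others had passed their peak by 6 dpw. For 4 over 2 dpw 6 of the 28 genes compared were called higher and 1 lower, and at 6 over 4 dpw 5 of the 29 genes compared were called higher and 2 lower. The rule genes tnc, thbs4b and thbs2b are not counted in this list. The shares over all genes were 5.18% higher and 12.4% lower at 4 over 2 dpw, and 7.02% and 5.62% at 6 over 4 dpw. The collagen-binding gene sparc (osteonectin) had 5745, 5282, 13016 and 19341 CPM across the unwounded, 2, 4 and 6 dpw libraries, 2.46 (2.41 to 2.52) times as much at 4 as at 2 dpw. Periostin, postnb, which supports collagen crosslinking, had 3541, 2367, 8299.6 and 11612 CPM with a ratio of 3.51 (3.40 to 3.62). The cartilage intermediate layer gene cilp had 433, 472, 1086 and 1256 CPM with a ratio of 2.30 (2.14 to 2.48). All 3 were at their highest level at 6 dpw.

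Fibronectin, the first scaffold of wound matrix, took the other course. The gene fn1b (ENSDARG00000006526) had 851, 2876, 5435 and 1989.6 CPM across the unwounded, 2, 4 and 6 dpw libraries, so that 6 dpw was 0.366 (0.358 to 0.374) times the level at 4 dpw. Its paralog fn1a had 354, 1352, 1872 and 795 CPM with a 6 over 4 dpw ratio of 0.425 (0.411 to 0.439), and the division of reads between the copies was not tested. In col18a1b+ fibroblasts fn1b had 300.0, 1891, 2437 and 993 CPM and was likewise highest at 4 dpw, while list B fibroblasts had 358, 250.1, 440.4 and 142 CPM. Within the members at 4 dpw, fn1b had 2712 CPM in cells with 3 list A genes and 8195 CPM in cells with all 7. In single members the median was 929.8 CPM at 2 dpw, 3492 CPM at 4 dpw and 1072 CPM at 6 dpw.

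Contractile genes, which mark myofibroblasts in mammalian wounds, were mixed. For 4 over 2 dpw 8 of the 48 genes compared were called higher and 5 lower, and at 6 over 4 dpw 5 of the 50 genes compared were called higher and 7 lower, with a summed ratio of 0.719 (0.707 to 0.731). Over all genes, 5.18% were called higher and 12.4% lower at 4 over 2 dpw, and 7.02% and 5.62% at 6 over 4 dpw. The actin-binding gene tagln (transgelin) had 122, 357, 1298 and 289 CPM across the unwounded, 2, 4 and 6 dpw libraries, 3.64 (3.35 to 3.96) times as much at 4 as at 2 dpw and 0.223 (0.211 to 0.235) times as much at 6 as at 4 dpw. It was detected in 45.7% of members at 6 dpw and in 83.8% at 4 dpw, at median depths of 8749 UMIs at 6 dpw and 14913.5 UMIs at 4 dpw. The smooth muscle actin gene acta2 stayed at 0 to 10.6 CPM in the members, whereas col18a1b+ fibroblasts had 212, 239, 296 and 259 CPM. At 4 dpw tagln had 1298 CPM in the members and 1446 CPM in col18a1b+ fibroblasts.

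Further genes were called lower at 6 than at 4 dpw. The urokinase gene plaub, which activates plasminogen, had 21.1, 5.57, 138 and 5.26 CPM across the unwounded, 2, 4 and 6 dpw libraries and a 6 over 4 dpw ratio of 0.0379 (0.0249 to 0.0554), although col18a1b+ fibroblasts had 18.8, 434, 985 and 397 CPM and stood above the members in the 3 wound libraries. A single cell held 13.4% of the plaub UMIs of the members at 4 dpw, and 18.8% of the members there had any. The neutrophil-attracting chemokine gene cxcl8b.1 had 26.4, 200, 518 and 230.0 CPM with a 6 over 4 dpw ratio of 0.444 (0.417 to 0.473). The membrane protease gene adam8a had 21.1, 121, 208 and 91.9 CPM, the complement gene c7a 21.1, 209, 260.3 and 80.8 CPM and the ADAMTS-like gene adamtsl7 0, 174, 171 and 27.3 CPM, with 6 over 4 dpw ratios of 0.441 (0.399 to 0.487), 0.310 (0.280 to 0.344) and 0.160 (0.134 to 0.190). All but adamtsl7, which was level at 2 and 4 dpw, were highest at 4 dpw. For plaub the 4 over 2 dpw ratio turned to 0.742 without cells with 3 or more markers of another class. That setting left 6 members at 2 dpw, where all 97 members together had 9 plaub UMIs, so this ratio rests on very few UMIs. The members of unwounded skin had no adamtsl7 UMI (3 UMIs would be 15.9 CPM).

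Several of the genes named were called higher at 6 than at 4 dpw and also had more CPM in the members of unwounded skin than at 2 or 4 dpw, and those given next were grouped after their values were seen. For tnmd the 6 over 4 dpw ratio was 7.46 (6.73 to 8.29), for ucmaa 3.94 (3.76 to 4.1), for matn4 2.05 (1.93 to 2.18) and for angptl7 3.14 (3.08 to 3.21), at the levels given above. The collagen- and integrin-binding gene tgfbi had 1009.5, 138, 259 and 697 CPM across the unwounded, 2, 4 and 6 dpw libraries, with a ratio of 2.69 (2.56 to 2.83). The proteoglycan gene ognb had 190.3, 32.8, 41.1 and 124 CPM with a ratio of 3.01 (2.67 to 3.40). Outside this group, the proteoglycan gene omd (osteomodulin) was lowest in unwounded skin, with 37.0, 40.2, 45.7 and 276 CPM, and had a ratio of 6.04 (5.46 to 6.69).

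The levels of these genes differed between cells of the class. In unwounded skin 1 of the 17 members carried all 7 list A genes, and this cell had 9179 CPM of ucmaa and 3672 CPM of matn4, against 424 and 138 CPM over the 7 cells with 3 list A genes. There the cell with most UMIs of the gene held 36.4% of the members' 209 ucmaa UMIs and 30.3% of their 33 tnmd UMIs. The median cell had none of either, so these unwounded levels rest on few cells. At 6 dpw ucmaa was detected in 43.9% of members and the upper quartile was 986 CPM, while the median cell had none. Likewise tnmd was detected in 32.0% of members at 6 dpw, against 12.8% at 4 dpw, and comp in 53.9% against 42.9%. The level of comp went up with the number of list A genes at 4 dpw, where it had 79.1 CPM in cells with 3 and 516 CPM in cells with 7.

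For the cartilage-type list as a whole, 4 of the 17 genes compared were called higher and 1 lower at 4 over 2 dpw, and 6 of the 19 genes compared were called higher and 2 lower at 6 over 4 dpw. Its sum was 3007, 1732, 3707 and 6165 CPM across the unwounded, 2, 4 and 6 dpw libraries, and col11a1b, also a fibrillar collagen, was its most abundant gene. The shares over all genes were 5.18% higher and 12.4% lower at 4 over 2 dpw, and 7.02% and 5.62% at 6 over 4 dpw. Regulators of cartilage were low: sox9a had 4.09 to 7.27 CPM and sox9b 0 to 8.05 CPM over the 4 libraries. The hyaluronan link gene hapln1a had 233, 79.3, 107 and 255 CPM with a 6 over 4 dpw ratio of 2.38 (2.198 to 2.57). In col18a1b+ fibroblasts hapln1a had 206, 360.0, 309 and 440.1 CPM, above the members in the 3 wound libraries.

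For the tendon list, 3 of the 18 genes compared were called higher and 1 lower at 4 over 2 dpw and 5 of the 20 genes compared were called higher and 2 lower at 6 over 4 dpw. The sum, led by col12a1a, was 5459.8, 5274, 8760.1 and 9265 CPM across the unwounded, 2, 4 and 6 dpw libraries, and its 6 over 4 dpw ratio of 1.06 (1.05 to 1.07) turned to 0.988 with totals that left out ribosomal protein, mitochondrial and haemoglobin genes. Over all genes, 5.18% were called higher and 12.4% lower at 4 over 2 dpw, and 7.02% and 5.62% at 6 over 4 dpw. The scleraxis gene scxa did not move with tnmd, its ratios being 0.924 (0.816 to 1.05) for 4 over 2 dpw and 0.852 (0.781 to 0.929) for 6 over 4 dpw. The thrombospondin gene thbs4a had 481, 186, 248 and 489 CPM with a 6 over 4 dpw ratio of 1.97 (1.86 to 2.08), just short of the limit.

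Small leucine-rich proteoglycans, which bind collagen fibrils, were called in 1 direction: 2 of the 11 genes compared were called higher and 0 lower at 4 over 2 dpw and 3 of the 13 genes compared were called higher and 0 lower at 6 over 4 dpw. Over all genes the shares were 5.18% higher and 12.4% lower at 4 over 2 dpw, and 7.02% and 5.62% at 6 over 4 dpw. In lists this short nothing is read from the absence of lower calls, here or for the elastic fibre genes below. Apart from the rule genes ogna, dcn and lum, asporin (aspn) had 428, 483, 386 and 326 CPM across the unwounded, 2, 4 and 6 dpw libraries and prelp 196, 122, 258 and 434 CPM, with a 4 over 2 dpw ratio of 2.11 (1.83 to 2.45) for prelp. For elastic fibre and microfibril genes, 4 of the 16 genes compared were called higher and 0 lower at 4 over 2 dpw and 5 of the 17 genes compared were called higher and 0 lower at 6 over 4 dpw. The microfibril gene mfap2 had 269.6, 94.8, 443 and 517 CPM with a 4 over 2 dpw ratio of 4.67 (3.98 to 5.53), and fndc1 had 227, 73.7, 158 and 580.4 CPM with a 6 over 4 dpw ratio of 3.68 (3.47 to 3.90).

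Hyaluronan and large proteoglycan genes summed to 1205, 1168, 726 and 844 CPM across the unwounded, 2, 4 and 6 dpw libraries, and 1 of the 15 genes compared was called higher and 3 lower at 4 over 2 dpw. The shares over all genes at this step were 5.18% higher and 12.4% lower. The hyaluronan-binding gene tnfaip6, which is induced by inflammation, had 507, 746, 336 and 240.5 CPM and a 4 over 2 dpw ratio of 0.450 (0.422 to 0.481). The brevican gene bcan, known as a proteoglycan of the nervous system in mammals, was the gene called higher, with 0, 3.10, 48.5 and 42.6 CPM and a ratio of 15.7 (6.67 to 48.4). In list B fibroblasts bcan reached 0 to 0.581 CPM.

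More matrix protease genes were called higher than lower at 4 dpw, and the reverse held at 6 dpw. For 4 over 2 dpw 10 of the 35 genes compared were called higher and 2 lower, and at 6 over 4 dpw 5 of the 37 genes compared were called higher and 9 lower. Over all genes, 5.18% were called higher and 12.4% lower at 4 over 2 dpw, and 7.02% and 5.62% at 6 over 4 dpw. The gelatinase gene mmp2 had 1543, 440.3, 1094 and 1764 CPM across the unwounded, 2, 4 and 6 dpw libraries and a 4 over 2 dpw ratio of 2.48 (2.30 to 2.68). The membrane-type protease genes mmp14a and mmp14b had 925, 438, 826 and 1024 CPM and 322, 171, 482 and 462 CPM. Among the cathepsins, ctsla had 1327, 980.3, 2791 and 1546 CPM with a 4 over 2 dpw ratio of 2.85 (2.71 to 2.997), and the collagen-cleaving ctsk had 523, 424, 872 and 794 CPM with a ratio of 2.06 (1.90 to 2.23). The lysosomal genes ctsba and ctsd were called lower at 6 dpw, with ratios of 0.479 (0.458 to 0.501) and 0.406 (0.379 to 0.434).

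Protease inhibitor genes were called in both directions at 4 dpw. Between 2 and 4 dpw 2 of the 14 genes compared were called higher and 4 lower at 4 dpw, and at 6 over 4 dpw 2 of the 13 genes compared were called higher and 0 lower. The shares over all genes were 5.18% higher and 12.4% lower at 4 over 2 dpw, and 7.02% and 5.62% at 6 over 4 dpw. The metalloproteinase inhibitor genes differed from each other: timp2a had 829.8, 447, 960.2 and 1185 CPM across the unwounded, 2, 4 and 6 dpw libraries with a 4 over 2 dpw ratio of 2.15 (1.99 to 2.32), and timp2b had 312, 1043, 361 and 395 CPM with a ratio of 0.346 (0.327 to 0.366). The gene timp2b was thus highest at 2 dpw.

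Signalling genes were called in both directions at 4 over 2 dpw, where 5.18% of all genes were called higher and 12.4% lower. In the TGF-beta, activin and BMP list 6 of the 51 genes compared were called higher and 4 lower, in the Wnt list 3 of the 24 genes compared were called higher and 2 lower, and in the FGF, PDGF, IGF and hedgehog list 4 of the 37 genes compared were called higher and 2 lower. At 6 over 4 dpw the counts were 8 higher and 0 lower of 54, 7 and 2 of 28, and 7 and 0 of 38 in the same order. The shares over all genes at that step were 7.02% higher and 5.62% lower. The ligand gene tgfb1a had 79.3, 39.6, 87.0 and 82.8 CPM across the unwounded, 2, 4 and 6 dpw libraries, with a 4 over 2 dpw ratio of 2.19 (1.70 to 2.87). The activin subunit gene inhbaa had 793, 278, 371 and 291 CPM and the Wnt antagonist gene frzb 206, 94.8, 33.8 and 88.6 CPM, frzb being 2.63 (2.29 to 3.01) times as high at 6 as at 4 dpw. The hedgehog co-receptor gene cdon had 31.7, 27.9, 32.1 and 134 CPM with a 6 over 4 dpw ratio of 4.16 (3.66 to 4.73).

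Of the transcription factor genes, 3 of the 50 genes compared were called higher and 3 lower at 4 over 2 dpw and 10 of the 57 genes compared were called higher and 0 lower at 6 over 4 dpw. Over all genes, 5.18% were called higher and 12.4% lower at 4 over 2 dpw, and 7.02% and 5.62% at 6 over 4 dpw. The 4 over 2 dpw ratio of the transcription factor sum was 0.861 (0.827 to 0.897) and turned to 1.08 with TMM factors. Besides meox1 and tcf15, the epithelial-mesenchymal transition factor gene snai1b had 15.9, 40.2, 65.2 and 34.1 CPM across the unwounded, 2, 4 and 6 dpw libraries in the members and 16.9, 13.3, 15.0 and 13.6 CPM in list B fibroblasts. The early-response factor gene klf6a had 317, 642, 329 and 480.3 CPM in the members. The gene nfixb was called higher at 6 dpw, with 148, 58.2, 47.2 and 113 CPM and a ratio of 2.39 (2.12 to 2.69).

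Genes of the cell cycle had their highest CPM at 2 dpw, when the members were still few. Of the DNA replication genes 0 of the 39 genes compared were called higher and 27 lower at 4 over 2 dpw, and of the mitosis genes 0 of the 47 genes compared were called higher and 39 lower. At 6 over 4 dpw 8 of 38 and 27 of 38 were called lower again. Over all genes, 12.4% were called lower at 4 over 2 dpw and 5.62% at 6 over 4 dpw. The proliferation marker mki67 had 5.29, 40.2, 12.4 and 4.29 CPM across the unwounded, 2, 4 and 6 dpw libraries, with a 4 over 2 dpw ratio of 0.307 (0.228 to 0.419), and 1 cell held 33.8% of its UMIs at 2 dpw. The replication clamp gene pcna had 5.29, 75.5, 31.4 and 21.0 CPM with a ratio of 0.416 (0.338 to 0.515). The mitotic topoisomerase gene top2a had 0, 35.3, 7.88 and 0.390 CPM, with ratios of 0.223 (0.159 to 0.316) for 4 over 2 dpw and 0.0495 (0.00590 to 0.184) for 6 over 4 dpw. A UMI of mki67 was found in 11.3% of members at 2 dpw, 5.92% at 4 dpw and 3.90% at 6 dpw. Applying the rule after thinning to 2000 UMIs gave 4 over 2 dpw ratios of 0.882 (0.723 to 1.09) for the sum of the replication genes, against 0.374 (0.348 to 0.403) over all members, and 0.758 (0.698 to 0.823) for the mitosis genes, against 0.472 (0.455 to 0.489), and it turned the direction of mki67, pcna and top2a to 1.24, 1.53 and 1.01. In list B fibroblasts the level at 4 dpw was higher, with 2.05, 14.8, 33.7 and 16.1 CPM of mki67 at the 4 stages.

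Of the glycolysis genes, 1 of the 23 genes compared was called higher and 9 lower at 4 over 2 dpw, beside 5.18% higher and 12.4% lower over all genes. The sum of the list was 2046, 3538, 2055 and 1658 CPM across the unwounded, 2, 4 and 6 dpw libraries. The enolase gene eno1a had 164, 381, 147 and 73.0 CPM with a 4 over 2 dpw ratio of 0.386 (0.352 to 0.424), and the lactate dehydrogenase gene ldha had 111, 246, 71.7 and 53.4 CPM with a ratio of 0.291 (0.258 to 0.329).

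Of the inflammation and chemokine genes, 3 of the 46 genes compared were called higher and 19 lower at 4 over 2 dpw, and 12 of the 48 genes compared were called higher and 3 lower at 6 over 4 dpw. Over all genes, 5.18% were called higher and 12.4% lower at 4 over 2 dpw, and 7.02% and 5.62% at 6 over 4 dpw. The summed level of the list at 4 dpw was 0.687 (0.676 to 0.699) times that at 2 dpw, which turned to 2.1 (1.773 to 2.503) over the members left without cells with 3 or more markers of another class. The macrophage marker sum in the members was 412 CPM at 4 dpw and 1909 CPM at 2 dpw, and its part in these counts was not tested. The chemokine gene cxcl18b had 629, 2092, 1263 and 1822 CPM across the unwounded, 2, 4 and 6 dpw libraries, and ccl19a.1 had 52.9, 578, 138 and 321 CPM with a 4 over 2 dpw ratio of 0.238 (0.219 to 0.258). The feedback inhibitor gene nfkbiaa had 407, 1073, 417 and 576 CPM with a ratio of 0.389 (0.368 to 0.411). Over those few members left, the ratio turned to 2.52 for ccl19a.1 and 5.15 for nfkbiaa. The prostaglandin synthase gene ptgs2a was higher in the members than in list B fibroblasts at every stage, with 1052, 391, 442 and 576 CPM against 77.4, 34.8, 44.6 and 79.4 CPM.

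**Figure D5:**
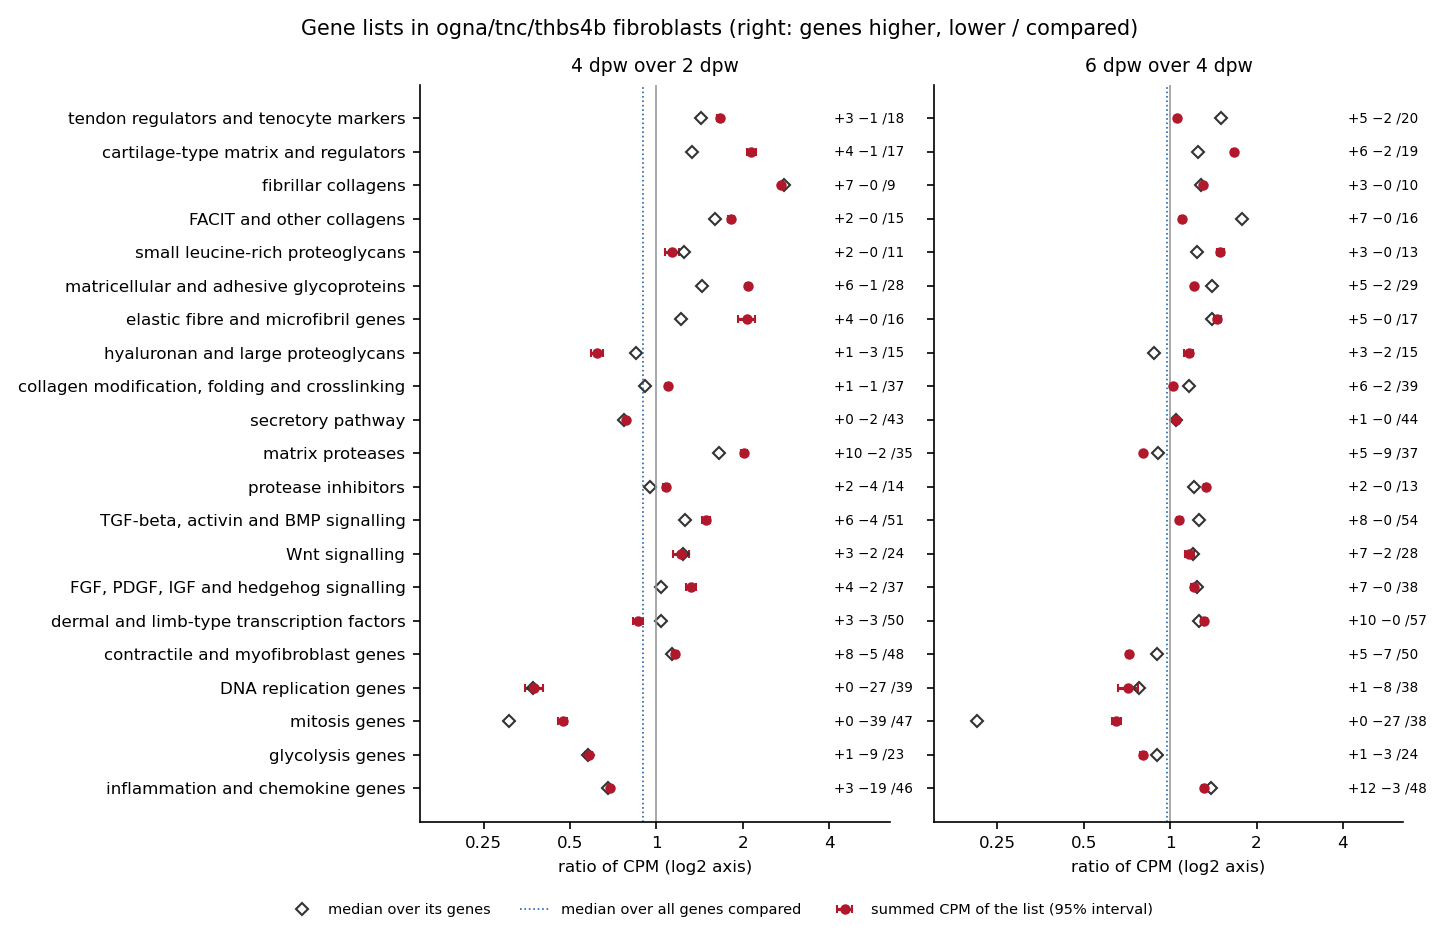
Each line is 1 of 21 gene lists in ogna/tnc/thbs4b fibroblasts, with the ratio of summed CPM (filled, 95% interval of the counts) and the median ratio over its genes (open) for 4 over 2 dpw on the left and 6 over 4 dpw on the right (log2 axes), the dotted line the median over all genes, and the numbers the genes called higher, lower and compared. Fibrillar collagens stand at 2.73 and the mitosis genes at 0.472 for 4 over 2 dpw, both on the same side of 1 under each scaling tried.

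The 10 largest ratios between 6 and 4 dpw were those of genes that ungated cells of the 6 dpw library expressed more than the members did. The scale mineral gene scpp7 had 5.29, 9.91, 2.08 and 384 CPM in the members across the unwounded, 2, 4 and 6 dpw libraries and 625, 516, 315 and 3504 CPM in ungated cells, and 1 cell held 69.0% of the members' scpp7 UMIs at 6 dpw. The keratinocyte gene ptgdsb.1 had 7785, 61.3, 129.5 and 1729 CPM in the members and 6695, 3373, 2603 and 4534 CPM in ungated cells, and 1 cell held 53.6% of the members' UMIs at 4 dpw. At the other end, cst14b.2 had 0, 399, 74.3 and 0.974 CPM in the members and 39.6, 1264, 645 and 50.0 CPM in ungated cells. Its direction at 4 over 2 dpw turned to a ratio of 3.58 without cells high in keratinocyte or leukocyte markers and to 1.32 without the cell with most of its UMIs. Without the members high in keratinocyte or leukocyte markers, 635 genes were called higher and 612 lower at 6 than at 4 dpw, and 626 higher and 1218 lower at 4 than at 2 dpw. Against unwounded skin the counts without them were 310 genes higher and 442 lower at 2 dpw, 240 and 629 at 4 dpw, and 250 and 459 at 6 dpw. In unwounded skin 1 cell held 67.2% of the members' ptgdsb.1 UMIs. The part of other cells' RNA in these values was not tested.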

How the data were processed

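Each library was a droplet single-cell RNA-seq library from 3 pooled fish. The deposited values are UMI counts per gene and cell barcode, not normalized, which the authors made with Cell Ranger; the submitters' processing notes name the GRCz11 build and Seurat 4.3.0. They were used as deposited, for 25432 genes of which 546 share a symbol with another gene. The annotation release is not given in the sources used here. No per-sample column was left unassigned.

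Cells, classes and lists were set by the limits given in the report. The members, the 21 pathway lists and the 13 marker lists of other cell classes were chosen with earlier results of these data known. UMIs of the members were summed per library and divided by their total (CPM). A count of 0 was compared at a floor of 3 UMIs. Intervals at 95% were exact Poisson for CPM, exact conditional for CPM ratios, Clopper-Pearson for shares and log-normal for ratios of shares. They cover counting error only. With 1 library per condition no test was run. Depth is given as total UMIs of the members and median UMIs per cell.

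Genes named are those of the rule, in each list the 4 of highest summed CPM and the 2 highest and 2 lowest 4 dpw over unwounded ratios, the 10 genes at each end for 4 dpw over unwounded and 6 over 4 dpw (5 for 2 dpw over unwounded), and 20 that led and 10 that trailed against list B fibroblasts, with at least 100 UMIs. Not every gene the rule selects is named, and 1 of them is not reported here. Genes added after their values were seen are acta2, ccl19a.1, cdon, col2a1a, col4a5, col4a6, ctsba, ctsd, fmoda, kera, ldha, loxa, mkxa, mkxb, mmp14b, nfkbiaa, plaub, plod2, ptgs2a, scxa, scxb, sox9a, sox9b, tgfb1a, thbs4a and top2a.

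Scrublet (scanpy 1.11.5) marked too few cells to be of use, and no doublets were removed. The scripts ran under Python 3.11.15 with numpy 2.4.6, scipy 1.17.1 and pandas 2.3.3, were tested on simulated data, and took TMM factors from edgeR 4.0.16 in R 4.3.3. Alternatives were other limits of the rule, thinning to 2000 or 1000 UMIs, other totals, per-cell means, other UMI minimums, and members without the top cell of a gene or without cells with 3 or more markers of another class. Leaving out cells high in keratinocyte or leukocyte markers was chosen after seeing the data.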

Additional observations from a re-analysis of the deposited data

How the results depend on the processing

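No paired analysis was possible because each condition is 1 library. The cause of the changes below was not tested. Of 97 ratios of shares recomputed, 84 stayed within the counting error. For 4 dpw over unwounded and 6 dpw over unwounded the share of all kept cells gave 35.5 and 22.1. For 4 over 2 dpw the ratio was 3.90 with 4 or more list A genes, 3.86 with list A without tnc, 5.23 and 5.44 after thinning to 2000 and 1000 UMIs, 8.31 over all kept cells and 2.14 without cells with 3 or more markers of another class. For 6 over 4 dpw it was 0.563 without ogna, 0.572 without thbs2b, 0.720 and 0.722 after thinning to 2000 and 1000 UMIs, and 0.933 without cells with 3 or more markers of another class. That last setting left 0, 6, 43 and 51 members, so it gave no value against unwounded skin or list B fibroblasts.

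Counts of genes called moved more. At 2 dpw over unwounded, 318 genes were higher and 172 lower with at least 100 UMIs, 906 lower with at least 1 UMI, 261 higher and 203 lower after thinning, 310 higher without cells high in keratinocyte or leukocyte markers, and 230 lower without the top cell of each gene. At 4 dpw over unwounded, TMM factors gave 691 higher and 458 lower, the top cell left out gave 511 and 228, and 485 were lower with at least 100 UMIs and 473 after thinning. At 6 dpw over unwounded, TMM factors gave 577 higher and 286 lower, the top cell left out 459 and 129, and 244 were lower with at least 100 UMIs and 286 after thinning. At 4 over 2 dpw, TMM factors gave 1159 higher and 781 lower, thinning 368 and 850, leaving out cells with 3 or more markers of another class 172 and 147, and 566 were lower with at least 100 UMIs and 897 without the top cell. At 6 over 4 dpw, at least 100 UMIs gave 325 higher and 266 lower, and leaving out cells with 3 or more markers of another class 186 and 261. Against list B fibroblasts the settings gave 174 to 200 genes higher and 127 to 193 lower.

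Of the summed list levels, 14 turned direction. With totals that left out ribosomal protein, mitochondrial and haemoglobin genes, the ratio was 0.988 for tendon genes, 0.955 for collagen modification and 0.976 for the secretory pathway at 6 over 4 dpw, and 0.988 for protease inhibitors at 4 over 2 dpw. After thinning to 2000 UMIs it was 0.859 for small leucine-rich proteoglycans, 0.992 for collagen modification, 0.930 for protease inhibitors and 0.9997 for Wnt genes at 4 over 2 dpw, and 0.982 for collagen modification at 6 over 4 dpw. Without cells with 3 or more markers of another class it was 0.763 for small leucine-rich proteoglycans and 2.1 for inflammation genes at 4 over 2 dpw, and 0.961 for collagen modification and 0.861 for the secretory pathway at 6 over 4 dpw. TMM factors gave 1.08 for transcription factor genes at 4 over 2 dpw. Of single genes named, these turned direction at 4 over 2 dpw. After thinning to 2000 UMIs the ratio was 0.588 for acta2, 1.13 for cxcl8a, 1.24 for mki67, 1.53 for pcna and 1.01 for top2a. Without cells with 3 or more markers of another class it was 2.52 for ccl19a.1, 0.840 for col11a1a, 5.15 for nfkbiaa, 0.742 for plaub and 0.350 for tenm3. Without cells high in keratinocyte or leukocyte markers it was 3.58 for cst14b.2 and 0.291 for ptgdsb.1, and without the top cell 1.32 for cst14b.2. At 6 over 4 dpw the ratio was 0.943 for TNC and 0.0802 for ccl25b without cells with 3 or more markers of another class, 1.54 for acta2 after thinning, and 0.969 for fdps without cells high in keratinocyte or leukocyte markers. The 17 members of unwounded skin limit every value set against that library.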

Other observations

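The 10 genes with the smallest 4 dpw over unwounded ratios in the ogna/tnc/thbs4b fibroblasts included hmgcs1, msmo1, fdps and cd44a, beside keratinocyte genes such as ptgdsb.1. Of these, cd44a also belongs to the hyaluronan and large proteoglycan list. The gene hmgcs1, which encodes an early enzyme of sterol synthesis, had 370.0, 6.81, 7.18 and 46.0 CPM in the members across the unwounded, 2, 4 and 6 dpw libraries. For msmo1, a sterol demethylating oxidase gene, the levels were 692, 14.2, 26.1 and 68.8 CPM, and for the farnesyl diphosphate synthase gene fdps 254, 13, 9.17 and 25.1 CPM. The 4 dpw over unwounded ratio was 0.0194 (0.0140 to 0.0271) for hmgcs1, 0.0376 (0.0305 to 0.0466) for msmo1 and 0.0362 (0.0255 to 0.0520) for fdps. Other cells differed in the same direction for hmgcs1, which had 131, 9.25, 9.20 and 35.2 CPM in list B fibroblasts and 469, 99.3, 82.8 and 361 CPM in ungated cells. The hyaluronan receptor gene cd44a had 275, 4.95, 4.67 and 38.56 CPM in the members. The unwounded values rest on 17 cells, in which keratinocyte markers summed to 20233 CPM, and the part of those markers in these ratios was not tested.

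At the other end, the fatty acid binding protein gene fabp11a had 21.1, 727, 599 and 457 CPM in the members across the unwounded, 2, 4 and 6 dpw libraries and 71.9, 7603, 1279 and 711 CPM in ungated cells. The teneurin gene tenm3 had 5.29, 31.6, 78.3 and 83.0 CPM in the members, and tpst1l, a tyrosylprotein sulfotransferase-like gene by its symbol, had 5.29, 17.96, 59.1 and 64.3 CPM in the members and 7.17, 8.94, 10.9 and 10.3 CPM in list B fibroblasts. The ratio for tpst1l, 11.2 (2.00 to 442) at 4 dpw over unwounded, has a wide counting interval because the members of unwounded skin held few UMIs of it.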
